A study of Mus musculus with 24 samples.

Results

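Methionine restriction delivered through oxidized casein was compared with a casein control diet in IWAT (inguinal white adipose tissue), a fat pad beneath the skin of the groin. The comparison took the 6 libraries of mice fed oxidized casein MR and the 6 libraries of mice fed casein control, 12 of the 24 libraries of the series, and every gene that could be tested. All animals were male C57BL6/J mice aged 4 months at sampling, put on their diet at 5 weeks of age and kept on it over 12 weeks, with a final fast of 4 h. The casein control diet held intact casein and 0.86% methionine. In the oxidized casein MR diet the casein had been oxidized, which removes its methionine, and methionine was returned to 0.17%. The methionine level and the oxidation of the protein therefore differed together, and their effects cannot be told apart. The other 12 mice ate elemental amino acids with 0.86% methionine (elemental control) or 0.17% methionine (elemental MR). Each library came from a separate mouse by the mouse numbers in the labels, which speak of 8 mice per diet, and 6 per diet had a library.

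White adipocytes store triglyceride, and inguinal fat can also acquire beige adipocytes, which carry many mitochondria, oxidize fatty acids and glucose and release heat through the uncoupling protein UCP1. Beige cells combine fuel oxidation with fatty acid synthesis and triglyceride turnover, and the coactivators of the PGC-1 family together with the estrogen-related receptors drive the genes of mitochondrial respiration. Dietary methionine restriction is known in rodents for higher energy expenditure, lower fat mass and browning of inguinal fat, and pelleted diets with oxidized casein have been used as a palatable way to lower methionine.

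Library totals ran from 8023612 to 14662176 reads in casein control and from 7468336 to 16201962 in oxidized casein MR. The design text of the series names the liver, while the sample source is IWAT. The 8 adipocyte markers had a mean log2 CPM (CPM, read counts scaled to a common library total) of 10.4 to 11.7 in the controls and 11.0 to 11.9 under MR, against 1.41 to 6.35 for 8 hepatocyte markers over the same 12 libraries. Inguinal fat contains a lymph node, and some pieces carried it: in 6 libraries (casein control 1, 2, 3 and 6, oxidized casein MR 3 and 5) the 8 B cell markers averaged 5.59 to 6.43 log2 CPM, and in the other 6 they averaged -0.72 to 2.75. The first principal component of the 12 libraries held 51.0% of the variance and separated these sets, which were unevenly spread over the diets, 4 of 6 controls against 2 of 6 MR mice. Skeletal muscle markers also varied, from 0.73 to 4.94 log2 CPM in the controls and 2.41 to 5.93 under MR, with a median log2 fold change of 0.89 over 9 markers and none called. The 5 red blood cell markers had a median of 0.76, none called, with 7.98 to 9.06 log2 CPM in the controls and 8.49 to 10.3 under MR. Because whole pieces of tissue were sequenced, more cells of a type and more RNA per cell cannot be told apart in any of these results.

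More transcripts were called higher than lower under oxidized casein MR when all mice were used. Of 15176 genes tested, 509 were called higher (3.35%) and 70 lower (0.461%) with edgeR's quasi-likelihood test at an adjusted p of 0.05, 3.82% of genes in all, and 2439 (16.1%) had an unadjusted p below that value. The balance differed between fits that handled the lymph node described above differently, for reasons that were not tested. With its presence as a term 689 genes were higher and 431 lower. In the 6 libraries without its transcripts (2 controls, 4 MR) 75 were higher and 97 lower. In the 6 libraries with them (4 controls, 2 MR) 5 were higher and 0 lower. The median called change was modest, 1.68-fold among the higher genes and 1.56-fold among the lower ones, and 114 higher and 18 lower genes passed 2-fold. In 344 genes (2.27% of those tested) all 6 MR mice lay above all 6 controls, and in 64 genes (0.422%) all lay below. Such complete separation held for 305 of the 509 genes called higher and 28 of the 70 called lower. The median log2 fold change of all genes tested was -0.06. The size of the called set rested in part on single mice: 377 genes were called without casein control 1, 316 without casein control 6 and 350 without oxidized casein MR 1, as the plot of calls with each library left out shows.

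**Figure D1:**
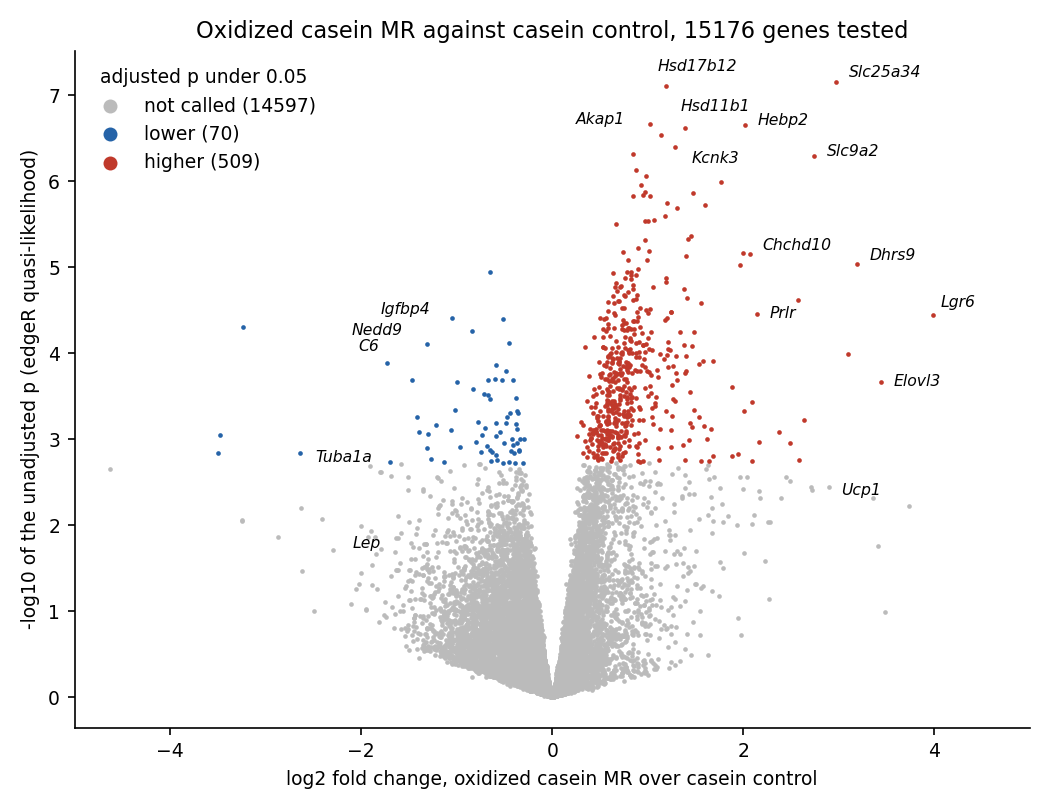
Each point is 1 of 15176 genes: log2 fold change of oxidized casein MR over casein control (x) against -log10 of the unadjusted p (y), with 509 genes called higher in red and 70 called lower in blue. The cloud of called genes lies mainly to the right, Slc25a34 and Hsd17b12 have the smallest p-values, and Ucp1 and Lep lie among the genes not called.

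The 10 genes with the smallest p-values were all higher under MR. Slc25a34, a member of the mitochondrial carrier family, ran from 1.08 to 6.33 CPM in the controls (median 2.30) and from 6.50 to 32.1 under MR (median 23.7). Every MR mouse was above every control, although oxidized casein MR 6 exceeded the highest control only narrowly. The log2 fold change was 2.97 ± 0.38 (SE, edgeR adjusted p = 0.000592). Hsd17b12, the reductase of the fatty acid elongation cycle, rose from a median of 141 CPM (95.6 to 177) to 311 CPM (271 to 394), a log2 fold change of 1.19 ± 0.16 (edgeR adjusted p = 0.000592). Akap1, which anchors protein kinase A at the outer mitochondrial membrane, rose from 29.9 CPM (25.7 to 49.6) to 67.7 CPM (62.7 to 83.3), 2.04-fold. None of these 3 genes had any overlap between the diets.

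Hebp2, a heme-binding protein, had a median of 10.7 CPM in the controls (7.31 to 21.5) and 48.9 CPM under MR (38.0 to 60.4), 4.04-fold higher. Hsd11b1, which regenerates active glucocorticoid inside adipocytes, went from 120 CPM (65.7 to 148) to 299 CPM (204 to 384), 2.61-fold. Pdk2, a kinase that restrains pyruvate dehydrogenase, went from 46.7 CPM (30.5 to 62.0) to 98.6 CPM (85.9 to 121), 2.20-fold. The diets did not overlap in any of these genes. Kcnk3, a background potassium channel of adipocytes, was 2.43-fold higher, the co-chaperone gene Bag1 1.80-fold, the sodium-proton exchanger gene Slc9a2 6.68-fold from a control median of 0.30 CPM, and the monoacylglycerol lipase gene Abhd6 1.84-fold. These completed the 10 genes with the smallest p-values, whose edgeR adjusted p ran from 0.000592 to 0.00112 for Abhd6, and all 10 were higher in 6 of 6 MR mice than in any control.

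Among genes averaging at least 2 log2 CPM over all 24 libraries, Lgr6, which encodes an R-spondin receptor, rose by the largest factor. Elovl3, the very-long-chain fatty acid elongase typical of brown and beige fat, came next. Lgr6 went from a median of 0.63 CPM (0.064 to 1.81) to 12.0 CPM (0.93 to 22.6), 15.8-fold, and Elovl3 from 6.77 CPM (0.64 to 23.5) to 113 CPM (15.7 to 200). In both, 5 of 6 MR mice exceeded all controls and oxidized casein MR 6 did not. Elovl3 had a log2 fold change of 3.45 ± 0.77 (edgeR adjusted p = 0.0125). Dhrs9, a retinol dehydrogenase family member, followed at 9.12-fold, again with oxidized casein MR 6 inside the control range. Its median was 0.36 CPM in the controls (1 to 11 reads) and 5.24 CPM under MR (3 to 75 reads). Dhrs9 was highest in elemental MR (median 9.67 CPM, against 1.03 in elemental control), which also entered the average over all 24 libraries. Cox7a1, a cytochrome oxidase subunit of muscle and thermogenic fat whose count muscle RNA could share (not tested), was 4.47-fold higher, the glycogen-targeting phosphatase subunit gene Ppp1r3b 4.28-fold, the mitochondrial carrier gene Slc25a48 4.25-fold and the mitochondrial intermembrane protein gene Chchd10 4.19-fold. The acyl-CoA synthetase gene Acsm3 (4.00-fold) and the transporter gene Mfsd4b1 (3.90-fold) followed. Slc25a34, Hebp2 and Prlr completed the 12 largest rises. Chchd10 was the most abundant of these, with 110 to 569 CPM in the controls and 1004 to 1670 CPM under MR and no overlap. The calls of Ppp1r3b and Cox7a1 were kept in 3 and 5 of 12 fits that left out 1 mouse.

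**Figure D2:**
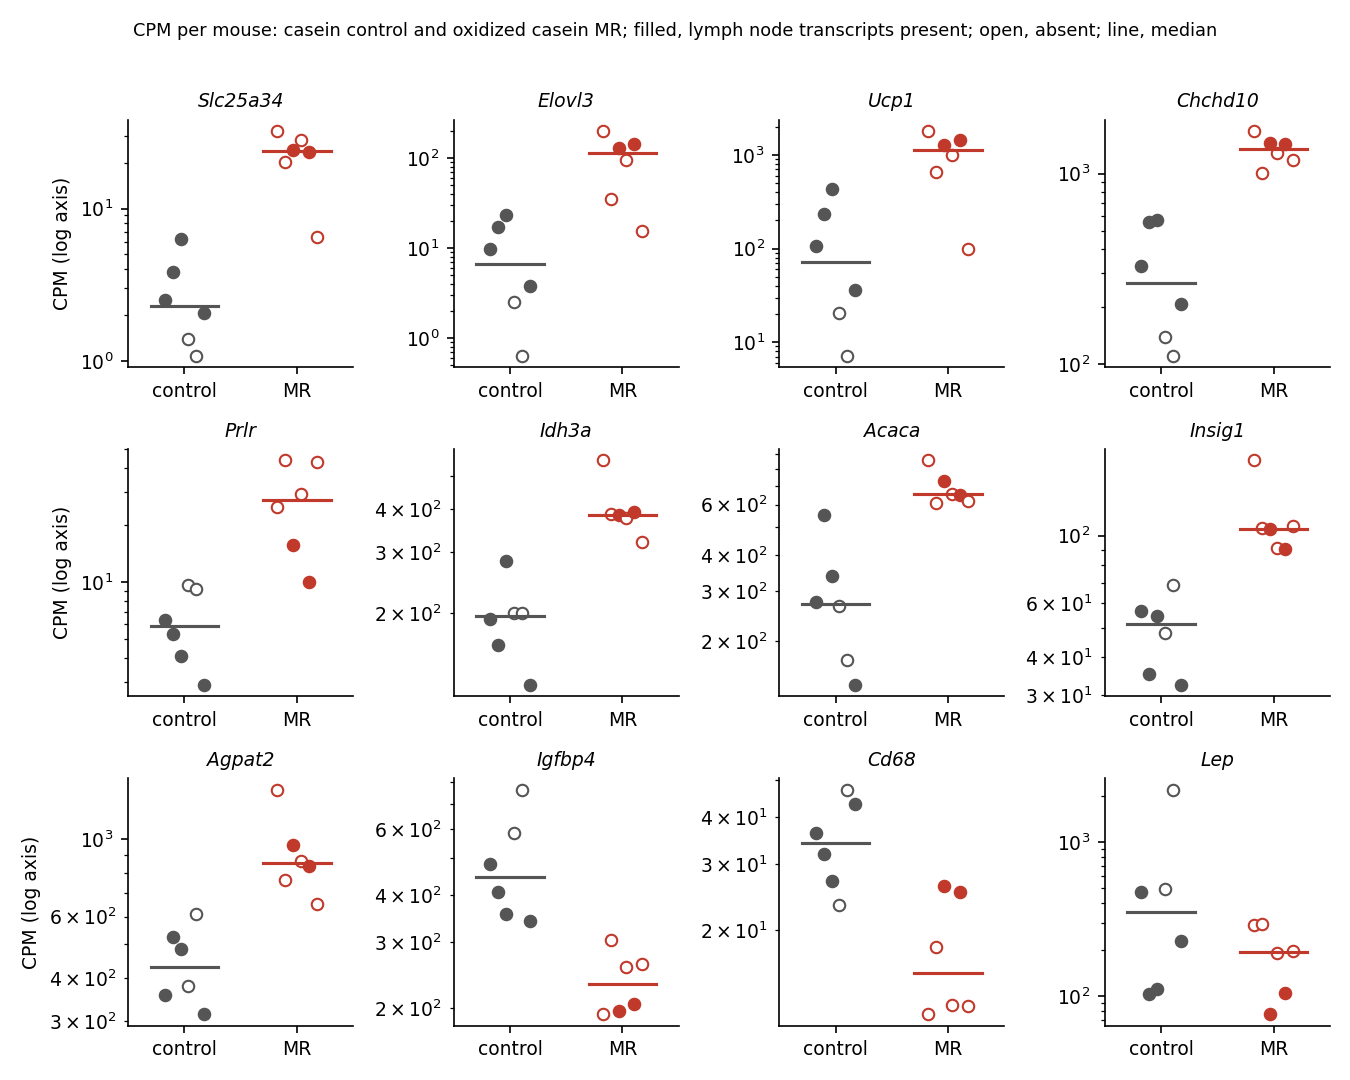
CPM of 12 genes in each mouse on a log axis, casein control in grey and oxidized casein MR in red; lines are medians, filled points are libraries with lymph node transcripts and open points those without. Slc25a34, Chchd10, Prlr, Idh3a, Acaca, Insig1 and Agpat2 rose and Igfbp4 fell without overlap between the diets, whereas the diets overlapped in Elovl3, Ucp1, Cd68 and Lep.

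Thermogenic adipocyte genes had the largest median change of the process lists. Of 24 tested, 10 were called higher and none lower, against 3.35% and 0.461% of all genes, with a median log2 fold change of 1.33 and 23 of 24 positive. Besides Elovl3, Cox7a1 and Kcnk3, these included Slc25a20, the carnitine carrier (2.29-fold, edgeR adjusted p = 0.00425), Clstn3, which has a brown-fat form that acts at the lipid droplet (2.59-fold, 0.00465), Acot2, a mitochondrial thioesterase (2.19-fold, 0.00919), and Gk, glycerol kinase (3.21-fold, 0.00999). Gk ran from 8.34 to 31.6 CPM in the controls and from 14.6 to 73.8 CPM under MR, where oxidized casein MR 6 was the one mouse within the control range. The count of 10 was 6 without casein control 4, casein control 6 or oxidized casein MR 1, and 15 without oxidized casein MR 6.

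Ucp1 itself was widely spread. It ran from 7.12 to 431 CPM in the controls (median 71.7) and from 99.4 to 1791 CPM under MR (median 1127). The MR mice were above all controls in 5 of 6 cases, and oxidized casein MR 6, at 99.4 CPM, was lower than 3 of the controls. edgeR gave a log2 fold change of 2.89 ± 0.88 that missed the threshold (adjusted p = 0.0741), while an exact 2-sided permutation test on log2 CPM over the 6 and 6 mice gave a difference of 3.62 (p = 0.013, 0.0195 adjusted over 3 single-value tests, smallest possible p 0.00216). The call depended on the fit: DESeq2 (adjusted p = 0.00578), limma voom (0.0452) and edgeR with lymph node presence as a term (0.00849) placed Ucp1 past the threshold, and leaving out oxidized casein MR 6 (0.0432) or casein control 3 (0.0286) did so as well. Cidea, a lipid droplet protein of thermogenic fat, behaved similarly, at 120 CPM in the controls (23.7 to 368) and 564 CPM under MR (313 to 801), with a log2 fold change of 1.77 ± 0.58 (edgeR adjusted p = 0.0979), and it too passed under 4 of 10 alternatives.

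The transcription factors and coactivators that govern these programmes were less often called than the respiratory genes, a difference that was not tested. Of 24 regulators, 3 were called higher (12.5%) and none lower, and the list median was 0.22 on the log2 scale. The count was 0 without casein control 1, casein control 6 or oxidized casein MR 1 and 5 without casein control 3. Perm1, a muscle- and fat-expressed regulator of mitochondrial genes, was 6.22-fold higher but at low levels, 0 to 0.53 CPM against 0.52 to 4.44 CPM. Esrra, encoding the estrogen-related receptor alpha, went from 13.2 CPM (11.4 to 18.0) to 21.9 CPM (18.4 to 37.9) without overlap, and the coactivator gene Ppargc1b was 2.16-fold higher, a call kept in 4 of 12 fits without 1 mouse. Ppargc1a, which encodes PGC-1 alpha, was 1.68-fold higher at an edgeR adjusted p of 0.0523, which missed the threshold. Ppargc1a passed with DESeq2 (0.0159), limma voom (0.0265), both other scalings (0.0437 and 0.039) and the lymph node (0.0192) and B cell (0.0214) terms, and without casein control 3 (0.00901) or oxidized casein MR 4 (0.0489). Prdm16, a determinant of beige identity, had a log2 fold change of 0.13 ± 0.17, and Pparg, the master regulator of adipocytes, one of 0.58 ± 0.29 (edgeR adjusted p = 0.736 and 0.334). In the adrenergic and cAMP list 2 of 23 genes were called higher (8.7%, against 3.35% of all genes tested), Akap1 and the adenylyl cyclase gene Adcy3. Adcy3 went from 13.5 CPM (9.20 to 16.9) to 27.2 CPM (24.1 to 30.5) with no overlap. None of the 23 was called lower, and 15 were positive. The lowest log2 fold change was -1.07, and in 1 gene all 6 MR mice lay below all 6 controls. The beta-3 receptor gene Adrb3 had a log2 fold change of 0.28 ± 0.21 (edgeR adjusted p = 0.549). The cAMP count of 2 was 5 without casein control 5 and 4 without oxidized casein MR 5 or 6.

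The respiratory chain, which passes electrons from NADH and succinate to oxygen and drives the ATP synthase, had the broadest rise. Of 80 nuclear oxidative phosphorylation genes, 66 were called higher (82.5%, against 3.35% of all genes tested) and none lower. The median log2 fold change was 0.73. In 62 genes all 6 MR mice were above all 6 controls, which held for 2.27% of all genes tested. By complex, 32 of 37 genes of complex I, 3 of 4 of complex II, 10 of 10 of complex III, 12 of 14 of complex IV and 9 of 15 of the ATP synthase were called. The subunit genes with the smallest p were Ndufa12, Ndufc1 and Ndufb10 of complex I and Atp5d of the ATP synthase. Ndufc1 went from 158 CPM (103 to 172) to 260 CPM (237 to 350), 1.80-fold with an edgeR adjusted p of 0.00465. Ndufa12 was 1.73-fold, Atp5d 1.68-fold and Ndufb10 1.58-fold higher, and the diets did not overlap in any of these 4 genes.

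Mitochondrially encoded transcripts moved in the same direction. They made up 18.8% ± 3.61 of reads in casein control (SD, n = 6; 15.1% to 24.2%) and 27.9% ± 4.36 in oxidized casein MR (22.6% to 35.8%), a difference of 9.10 percentage points in an exact 2-sided permutation test (p = 0.00433, 0.013 adjusted over 3 tests). In 5 of 6 MR mice the share was above all controls, and oxidized casein MR 6 was below casein control 3. The deposited counts held 8 of the 13 listed mRNAs of this kind, so the share does not cover all of them. All 8 were tested and 6 were called higher (75%, against 3.35% of all genes), with a list median of 0.94 on the log2 scale. The complex I genes mt-Nd1 (2.02-fold), mt-Nd2 and mt-Nd5 (1.81-fold) and mt-Cytb of complex III (1.85-fold) were among them. mt-Nd5 ran from 1741 to 2625 CPM in the controls and from 3051 to 5883 CPM under MR.

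Lists of supporting mitochondrial systems had smaller medians, and most members of all but the coenzyme Q list were not called. Against 3.35% of all genes tested, 7 of 13 coenzyme Q synthesis genes were called higher. They were led by Coq3, Coq8a (2.65-fold), Coq9 and Coq6, and the list had a median log2 fold change of 0.59. Of 27 import and chaperone genes 11 were called higher, including the protease subunit gene Afg3l2, the chaperone gene Hspa9, the import factor gene Timm13 and the outer membrane pore gene Tomm40, and the median was 0.46. In the mitochondrial ribosome 18 of 77 genes were called higher, Mrps15, Mrpl1, Mrpl12 and Mrps18a at the head, with a median of 0.34 and 76 of 77 positive. Without casein control 6 the ribosomal count was 7, without oxidized casein MR 1 it was 11 and without casein control 5 it was 29. The import count was 7 without casein control 1 and 6 without casein control 6 or oxidized casein MR 1. The coenzyme Q count was 3 without casein control 1, casein control 6 or oxidized casein MR 1 and 4 without casein control 4. Of 39 genes of the Slc25 carrier family 13 were called higher, among them Slc25a42, a coenzyme A carrier (2.30-fold). Only Mterf4 of 13 genes for mitochondrial DNA maintenance and transcription was called (3 when casein control 3 was left out, 2 when oxidized casein MR 6 was), and the genome-packaging factor gene Tfam was at 26.3 CPM under both diets by the median (log2 fold change 0.18 ± 0.14, edgeR adjusted p = 0.539). None of the 82 cytosolic ribosomal protein genes was called, with a median of -0.22 (5 positive). The list mean ran from 7.39 to 8.11 log2 CPM in the controls and from 7.01 to 8.05 under MR, where the 2 MR libraries with lymph node transcripts were the highest.

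**Figure D3:**
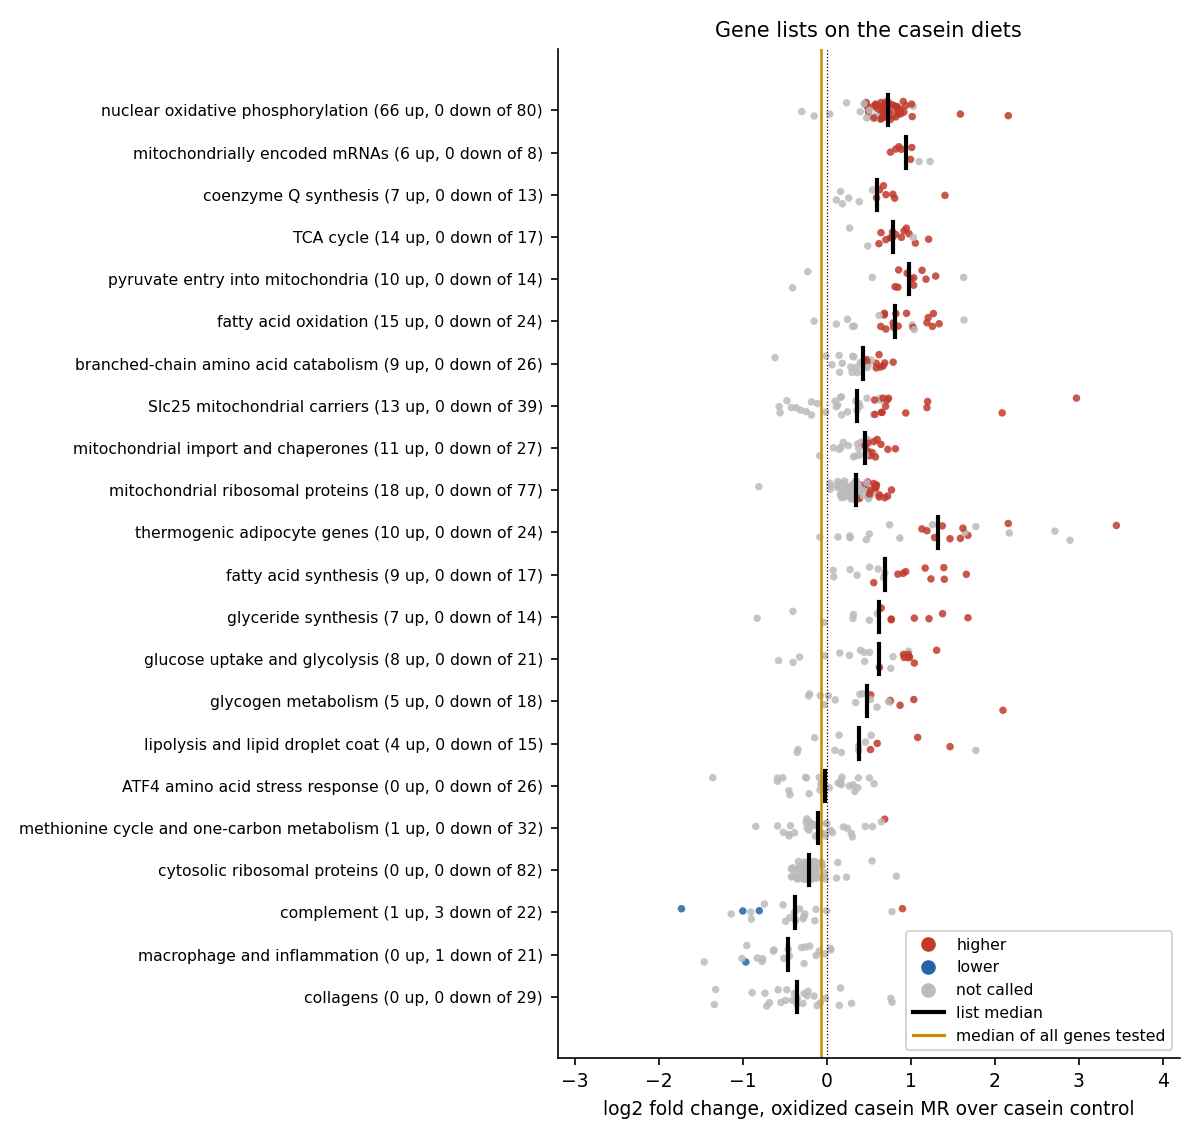
Log2 fold change of each tested member (points) of 22 gene lists, with the list median (black bar), the median of all genes tested (-0.06, gold line) and called genes in red or blue. Nuclear oxidative phosphorylation (66 of 80 higher), the TCA cycle (14 of 17) and pyruvate entry (10 of 14) lie mostly to the right, and the ATF4, methionine and cytosolic ribosomal lists lie around that line or slightly to its left.

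Promoter windows of RefSeq (build GRCm38.p6) were available for 10972 of the tested symbols and 403 of the genes called higher, and were searched on both strands for motifs of factors known to regulate respiratory and lipogenic genes. Windows spanned 250 bases before to 50 bases after each start, 300 bases in all. The estrogen-related receptor site TNAAGGTCA was in 0.744% of the genes called higher against 0.975% of genes tested, and the palindromic NRF1 site in 3.23% against 2.20%. The cAMP element TGACGTCA was in 3.97% against 3.33%, the E-box CACGTG in 11.4% against 11.3%, the sterol element TCACNCCAC in 1.74% against 1.39% and the ETS site CCGGAAGTG in 3.97% against 4.51%. The PPAR direct repeat is a pair of AGGTCA units with a single base between them and shares letters with the estrogen-related receptor site. It was in 1 of the 403 genes called higher (0.248%) and in 5 of the 10972 tested (0.0456%). Among 65 oxidative phosphorylation genes with a window the NRF1 site and the cAMP element each occurred in 7.69%, as did the E-box, the estrogen-related receptor site in 4.62% and the ETS site in 3.08%. A match is a run of letters and not a measured binding site. The 250 bases before the start are shown for 2 respiratory genes and 2 lipogenic regulators of the called set, chosen after their values were seen because each holds such a match, which is in capitals:
Ndufb4: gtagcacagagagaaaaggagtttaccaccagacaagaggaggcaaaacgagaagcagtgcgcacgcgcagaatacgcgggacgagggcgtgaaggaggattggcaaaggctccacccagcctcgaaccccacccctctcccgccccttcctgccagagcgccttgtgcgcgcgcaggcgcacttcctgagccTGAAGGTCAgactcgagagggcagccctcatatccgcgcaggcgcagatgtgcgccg
Ndufa11: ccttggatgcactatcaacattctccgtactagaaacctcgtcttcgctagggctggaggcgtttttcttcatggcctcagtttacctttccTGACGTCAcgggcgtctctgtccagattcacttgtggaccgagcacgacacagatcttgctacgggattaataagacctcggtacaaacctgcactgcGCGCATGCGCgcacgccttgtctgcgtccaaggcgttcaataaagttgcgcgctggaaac
Insig1: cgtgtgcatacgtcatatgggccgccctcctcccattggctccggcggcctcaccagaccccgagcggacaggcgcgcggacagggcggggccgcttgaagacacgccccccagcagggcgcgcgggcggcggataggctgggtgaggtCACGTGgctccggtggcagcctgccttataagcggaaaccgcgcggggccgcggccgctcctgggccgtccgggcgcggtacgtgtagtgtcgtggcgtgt
Mlxipl: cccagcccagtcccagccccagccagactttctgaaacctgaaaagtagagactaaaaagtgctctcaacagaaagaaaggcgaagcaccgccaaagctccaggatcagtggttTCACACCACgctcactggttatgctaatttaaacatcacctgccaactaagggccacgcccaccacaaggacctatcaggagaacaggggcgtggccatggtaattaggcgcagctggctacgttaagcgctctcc

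The first, for Ndufb4 of complex I (chr16:37654369-37654618, minus strand), has the estrogen-related receptor site beginning 57 bases before the start, and its transcript went from 68.0 CPM (51.8 to 91.9) to 108 CPM (101 to 130). Ndufa11, also of complex I (chr17:56717512-56717761, plus strand), has the cAMP element 158 and the NRF1 site 60 bases before the start, and was at 111 CPM (85.6 to 125) in the controls and 163 CPM (155 to 205) under MR. Insig1 (chr5:28071162-28071411, plus strand) has the E-box 101 bases before the start, and Mlxipl (chr5:135106641-135106890, plus strand), for which the table holds 2 windows, has the sterol element 136 bases before the start shown. Coordinates are those of GRCm38.p6.

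Genes that bring pyruvate into the mitochondrion and oxidize it were mostly higher. Both subunit genes of the mitochondrial pyruvate carrier were called higher, Mpc1 2.46-fold and Mpc2 2.27-fold. All 5 pyruvate dehydrogenase genes were called, among them Pdha1 (2.01-fold), and so was Pcx, pyruvate carboxylase (1.80-fold), which makes oxaloacetate. In the whole pyruvate list 10 of 14 genes were called higher (71.4%, against 3.35% of all genes) and the median was 0.98 on the log2 scale. The inhibitory kinase gene Pdk2 was also higher, and Pdk4, the kinase induced by fasting, had a log2 fold change of 1.63 ± 0.55 that did not pass in edgeR (adjusted p = 0.114). It passed with DESeq2 (0.0363), limma voom (0.03), the lymph node (0.0454) and B cell (0.0423) terms, and without casein control 3 (0.0245). Of 17 TCA cycle genes 14 were called higher (median 0.78, all 17 positive), with Idh3a, the catalytic subunit of isocitrate dehydrogenase, going from 197 CPM (124 to 283) to 386 CPM (322 to 554) without overlap. Idh3b of the same enzyme (1.93-fold), Ogdh of the 2-oxoglutarate dehydrogenase (1.89-fold) and Sucla2 of succinyl-CoA ligase (1.97-fold) were also higher, and the NADP-linked Idh2 did not pass (1.21-fold, edgeR adjusted p = 0.280). Without casein control 6 the count of 14 was 9.

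Some genes of glycolysis and glycogen metabolism were also called higher. Of 21 genes for glucose uptake and glycolysis 8 were called higher (38.1%, against 3.35% of all genes) with a median log2 fold change of 0.63. Slc2a4, the insulin-responsive glucose transporter, was 1.55-fold (call kept in 5 of 12 fits without 1 mouse), Pfkl, the liver-type phosphofructokinase, 2.48-fold, Aldoa 1.98-fold and Pkm 1.96-fold higher. Aldoa went from 1160 CPM (637 to 1341) to 2085 CPM (1737 to 2798) with no overlap. Gapdh was 1.96-fold higher from only 43.0 CPM, and since it has many near-identical pseudogene copies its count is uncertain. Hexokinase 2, Hk2, had a log2 fold change of 0.97 ± 0.29 (edgeR adjusted p = 0.0669). In glycogen metabolism 5 of 18 genes were called, Ppp1r3b, the branching enzyme gene Gbe1 (1.69-fold), the primer gene Gyg (1.44-fold), the phosphatase subunit gene Ppp1r3c (2.05-fold) and the phosphorylase gene Pygl (1.83-fold), so both synthesis and breakdown were represented. Most members of both lists were not called, and the 3 glucose transporter genes had a median of -0.32. The glycolysis count of 8 fell to 4 without casein control 1 and to 3 without casein control 6 or oxidized casein MR 1. The glycogen count of 5 fell to 2 without casein control 6 and to 3 without casein control 1 or 4 or oxidized casein MR 1 or 4.

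Fatty acid oxidation genes were higher mainly in the mitochondrial pathway. Of 24 genes 15 were called higher (62.5%, against 3.35% of all genes), and the list median was 0.81. The calls included 10 of 12 genes of beta-oxidation proper and none of 5 of the peroxisome. Eci1, which isomerizes unsaturated chains, went from 122 CPM (92.4 to 165) to 250 CPM (228 to 307), and the carnitine acetyltransferase gene Crat from 83.7 CPM (58.0 to 97.2) to 140 CPM (126 to 174), both without overlap and with an edgeR adjusted p of 0.00127. Decr1 was 1.73-fold and Acadvl, the very-long-chain acyl-CoA dehydrogenase, 2.53-fold higher. Cpt1a, a carnitine palmitoyltransferase of the outer membrane, was at 38.6 CPM in the controls and 35.7 CPM under MR (log2 fold change -0.15 ± 0.14, edgeR adjusted p = 0.623). Among 26 genes for branched-chain amino acid catabolism 9 were called higher with a median of 0.43. They included Bckdha of the branched-chain ketoacid dehydrogenase (1.54-fold) and its inhibitory kinase Bckdk (1.56-fold), the mitochondrial carrier Slc25a44 (1.59-fold) and Hibch of valine breakdown. The transaminase gene Bcat2 did not pass (edgeR adjusted p = 0.487). The count of 9 was 5 without casein control 1 or 6 and 14 without casein control 5.

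Fatty acid synthesis genes were higher in the same mice. Of 17 genes 9 were called higher (52.9%, against 3.35% of all genes) and all 17 were positive, with a median log2 fold change of 0.69. Acaca, the acetyl-CoA carboxylase that commits carbon to synthesis, went from 270 CPM (140 to 551) to 653 CPM (608 to 858). The lowest MR mouse was above the highest control, and the log2 fold change was 1.24 ± 0.24 (edgeR adjusted p = 0.00619). Acacb was 2.64-fold, Acly, which makes cytosolic acetyl-CoA, 2.63-fold, Fasn, fatty acid synthase, 2.25-fold, the elongase gene Elovl6 3.16-fold and the malic enzyme gene Me1 1.80-fold higher. Scd1, the desaturase that makes monounsaturated fatty acids, went from 9339 CPM (5556 to 14150) to 18300 CPM (13360 to 22140), where 5 of 6 MR mice exceeded all controls. Of 13 lipogenic regulators 2 were called, Insig1, the ER protein that retains the SREBP complex (2.28-fold), and Mlxipl, which encodes the carbohydrate-responsive factor ChREBP (2.14-fold), and neither overlapped. Oxidized casein MR 1 was the highest in both. Srebf1, which encodes SREBP-1, had a log2 fold change of 0.70 ± 0.27 (edgeR adjusted p = 0.172), and none of 24 genes of cholesterol synthesis and uptake was called (4 without casein control 5, 2 without oxidized casein MR 6).

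Glyceride synthesis followed, with 7 of 14 genes called higher (50%, against 3.35% of all genes) and a median of 0.63. Gpd1, which supplies glycerol 3-phosphate, was 2.60-fold, Gpam, the first acyltransferase, 2.33-fold from 1.87 CPM, Agpat2 2.06-fold, Agpat3 1.57-fold, Dgat1, which forms triglyceride, 1.70-fold and Pck1, the enzyme of glyceroneogenesis, 1.70-fold higher. Agpat2 went from 430 CPM (314 to 608) to 853 CPM (651 to 1392) with no overlap. On the side of breakdown and storage 4 of 15 genes were called: the droplet coat genes Plin2 (2.12-fold) and Plin5 (2.76-fold), the lipase gene Pnpla2 (1.43-fold), which encodes ATGL, and its activator gene Abhd5 (1.52-fold). Hormone-sensitive lipase, Lipe, did not pass (1.30-fold, edgeR adjusted p = 0.224). The count of 4 was 0 without casein control 6, 1 without casein control 1 or oxidized casein MR 1, and 2 without casein control 3 or 4 or oxidized casein MR 6, and the calls of Pnpla2 and Abhd5 were kept in 4 and 6 of 12 fits. In fatty acid uptake and activation 4 of 15 were called, Acsl1 (1.52-fold), the binding protein gene Fabp5 (1.71-fold), the transporter gene Slc27a1 (1.62-fold) and Lmf1, a maturation factor of lipases (1.40-fold), and 2 were called without casein control 1, 2 or 6.

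The lists for sensing and handling methionine had called shares on both sides of the 3.82% of all genes. None of the 26 genes of the ATF4 response to amino acid shortage was called, with a median log2 fold change of -0.02. Asns, asparagine synthetase and a standard ATF4 target, was at 25.3 CPM (15.8 to 37.3) in the controls and 34.1 CPM (21.4 to 46.4) under MR, with broad overlap (0.33 ± 0.19, edgeR adjusted p = 0.396). Fgf21, the hormone known to rise in liver under restriction, was at 0 to 0.38 CPM and 0.090 to 0.74 CPM and too low to be tested. Of 32 genes of the methionine cycle and one-carbon metabolism 1 was called (3.12%), Ahcyl1, an adenosylhomocysteinase-like protein (1.61-fold), whose call was kept in 5 of 12 fits without 1 mouse. Mat2a, which makes S-adenosylmethionine, had a log2 fold change of -0.01 ± 0.14 (edgeR adjusted p = 0.988). None of 12 cysteine, taurine and sulfide genes was called, although their median was 0.38 and the list mean was higher in all 6 MR mice (5.25 to 5.56 log2 CPM) than in any control (4.87 to 5.18). Members of that list were called in 3 of 10 alternative fits. Of 33 genes for methionine sulfoxide repair and glutathione defence 4 rose (12.1%). They were Msra, the reductase of methionine sulfoxide (1.39-fold), the mitochondrial peroxidase gene Prdx3 (1.61-fold), the mitochondrial thioredoxin gene Txn2 (1.39-fold) and the transferase gene Gsta4 (1.51-fold). That count of 4 was 0 without casein control 1, casein control 6 or oxidized casein MR 1, 1 without casein control 2, and 7 without casein control 5 or oxidized casein MR 6. Of 19 amino acid transporters Slc36a2, a proton-coupled carrier of small amino acids, rose 1.62-fold and Slc7a8, a carrier of large neutral amino acids, fell (10.5% called together), the latter call kept in 5 of 12 fits.

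Of the 70 lower genes 8 were members of any of the 41 process lists, against 224 of the 509 higher genes. These lists were chosen with earlier results of these data known and do not include the cell type marker lists. Igfbp4, a binding protein that restrains insulin-like growth factors, went from 446 CPM (341 to 763) to 231 CPM (192 to 304) with every MR mouse below every control, a log2 fold change of -1.05 ± 0.21 (edgeR adjusted p = 0.0065). Complement had 3 lower genes of 22, against 0.461% of all genes tested, and a median of -0.38. C6 of the terminal pathway fell by 1.73 on the log2 scale. C4b of the classical pathway fell from 183 CPM (117 to 299) to 109 CPM (74.0 to 121), and its near-identical copy C4a makes its count uncertain. Cfb, factor B of the alternative pathway, fell from 74.0 CPM (66.0 to 190) to 54.3 CPM (45.3 to 60.3) without overlap. Cfd, the adipocyte protease that activates factor B, rose instead, from 7889 CPM (4791 to 14120) to 15180 CPM (9765 to 23430), with overlapping groups and a call kept in 4 of 12 fits without 1 mouse. Of these 4 complement calls 2 were left without casein control 5, oxidized casein MR 1 or oxidized casein MR 4.

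Nedd9, a scaffold of focal adhesions, went from 44.0 CPM (35.0 to 147) to 24.1 CPM (16.3 to 32.4), and Ntm, an adhesion protein, from 5.44 CPM (3.64 to 9.86) to 1.93 CPM (1.38 to 3.54), neither with overlap. Of 13 tubulin genes 3 were called (23.1%, against 3.82% of all genes tested). Tuba1a (3.24-fold) and Tuba1b (1.67-fold) were lower and Tuba8, which muscle also expresses, was 3.21-fold higher. The Tuba8 call was kept in 4 of 12 fits without 1 mouse and the Tuba1b call in 6. Without casein control 1, 4 or 5 or oxidized casein MR 1 no tubulin was called. The alpha-tubulins are near-identical copies, so their split is uncertain. Tuba1a ran from 161 to 1844 CPM in the controls, highest in casein control 5, and from 131 to 304 CPM under MR, and its call was kept in 3 of 12 fits without 1 mouse. Cyp2e1, a cytochrome P450, was 2.47-fold lower, Slc7a8 2.63-fold, the inositol transporter gene Slc2a13 2.32-fold and the calcium channel gene Cacna1e 2.08-fold. Cd68, a lysosomal marker of macrophages, went from 34.0 CPM (23.4 to 47.2) to 15.4 CPM (12.0 to 26.3) and kept its call in 5 of 12 fits. It was the one member called of 21 macrophage and inflammation genes (4.76%, against 3.82% of all genes), whose median was -0.46. Prtn3, a neutrophil protease, was the one call among 7 granulocyte and mast cell markers (14.3%), 2.41-fold lower and kept in 4 of 12 fits. In the main fit no collagen gene of 29 was called (median -0.35), nor any of 31 matrix remodelling, 20 unfolded protein response, 17 proliferation or 16 clock genes. Members were called in 3 of 10 alternative fits for collagens, 3 for matrix remodelling and 2 for the clock. No alternative fit called an unfolded protein response or proliferation gene. The 8 B cell markers had a median of -1.06 and the 8 T cell markers one of -0.67, none called. These medians of lymphoid markers had the same sign as the lower genes. With lymph node presence or B cell marker level as a term in the fit, all 124 called genes named, higher or lower, kept their call. The cause of the lower levels was not tested.

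Hormone and receptor genes included 1 of the larger rises. Prlr, the prolactin receptor, went from 5.86 CPM (2.87 to 9.67) to 27.0 CPM (9.99 to 43.8), 4.41-fold and narrowly without overlap (edgeR adjusted p = 0.00622), and was the one receptor called among 27 genes of insulin, IGF and growth hormone signalling, where 7.41% were called against 3.82% of all genes. Lep, which encodes leptin, ran from 102 to 2195 CPM in the controls (median 349) and from 75.9 to 295 CPM under MR (median 193), with 5 of 6 MR mice inside the control range. Its log2 fold change was -1.65 ± 0.66 (edgeR adjusted p = 0.199), and the exact 2-sided permutation test on log2 CPM gave a difference of -0.95 (p = 0.247). Without casein control 5 the log2 fold change was -0.56. With lymph node presence or B cell marker level as a term in edgeR, Lep passed the threshold (-1.88, adjusted p = 0.00739, and -1.76, adjusted p = 0.00674). Adipoq, adiponectin, had a log2 fold change of 0.19 ± 0.28 (edgeR adjusted p = 0.774), with 1591 to 5208 CPM and 2100 to 4835 CPM. Of 18 white adipocyte identity genes 4 were called higher, Cfd, Adig (1.64-fold), Pck1 and Slc2a4, and 1 was left without casein control 6 or oxidized casein MR 2 and 2 without casein control 1 or 3 or oxidized casein MR 1, 4 or 6. In the interferon list the single call of 17 (5.88%, against 3.82% of all genes) was Ifi27, kept in 6 of 12 fits. Ifi27 was at 456 CPM (262 to 612) in the controls and 655 CPM (572 to 854) under MR.

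The mean level of a list in each mouse shows how the diets were separated mouse by mouse. For nuclear oxidative phosphorylation the mean log2 CPM was 6.66 to 7.33 in the controls and 7.62 to 8.08 under MR, for the TCA cycle 6.67 to 7.49 and 7.61 to 8.38, and for fatty acid synthesis 6.81 to 7.75 and 7.96 to 8.67. No MR mouse fell within the control range in these lists. Thermogenic genes ran from 3.91 to 5.58 and from 5.02 to 6.76, with oxidized casein MR 6 inside the control range. Casein control 6 was the lowest and oxidized casein MR 1 the highest mouse for respiration.

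**Figure D4:**
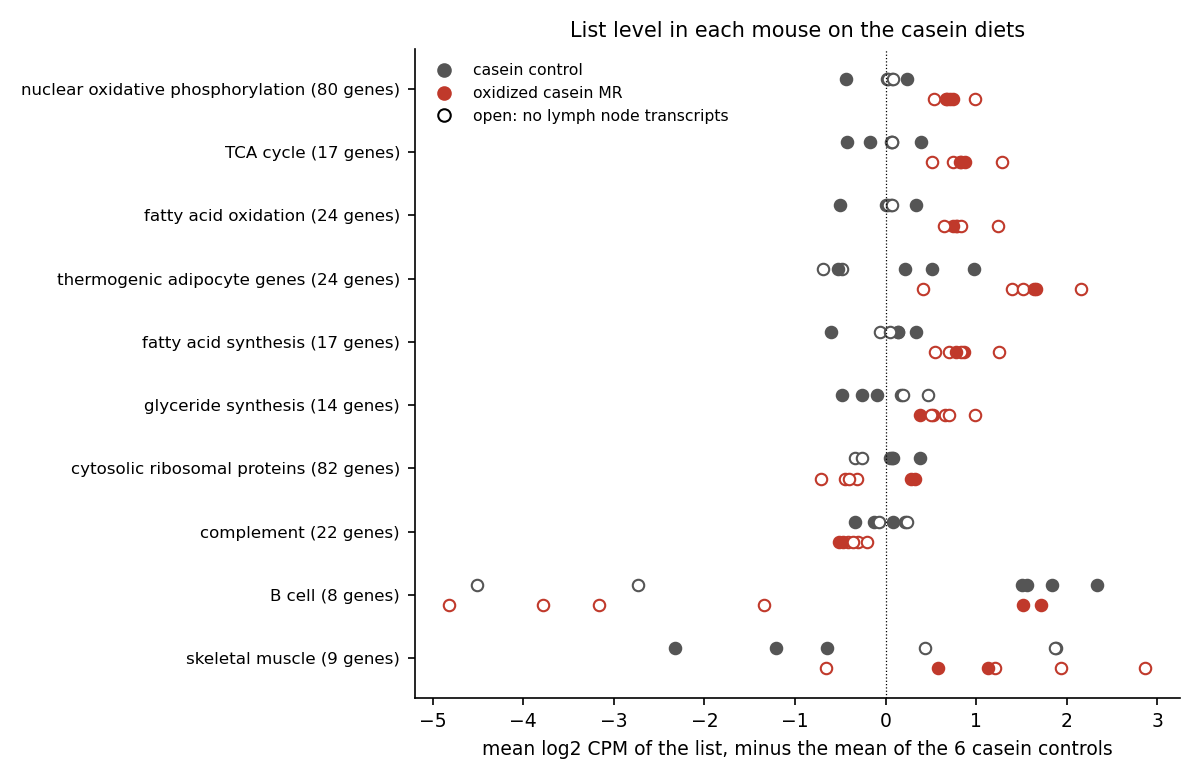
Mean log2 CPM of each list in each of the 12 mice, as a difference from the mean of the 6 casein controls; grey is casein control, red is oxidized casein MR, and open points are libraries without lymph node transcripts. The oxidative phosphorylation, TCA cycle, fatty acid oxidation and fatty acid synthesis rows separate the diets completely, whereas the B cell row separates open from filled points.

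The direction of the main lists was the same with and without the lymph node. In the 6 libraries that had it (4 controls, 2 MR) the median log2 fold change was 0.70 for nuclear oxidative phosphorylation, 0.82 for the TCA cycle, 0.68 for fatty acid oxidation and 0.65 for fatty acid synthesis. In the 6 libraries without it (2 controls, 4 MR) the medians were 0.75, 0.87, 0.92 and 0.78. With so few mice edgeR called 5 genes in the first set, Slc25a34, Dhrs9, Hebp2, Kcnk3 and the R-spondin gene Rspo4, the last named after its value was seen, and 172 in the second, of which 75 were higher and 97 lower. Lymph node presence as a term in the fit of all libraries raised the calls from 579 to 1120, 689 higher and 431 lower, so the share of calls that were higher fell from 87.9% to 61.5%. Of the 579 genes 575 kept their call. Under that term complement had 6 lower genes of 22, and Igfbp4 had a log2 fold change of -1.19 ± 0.15 (edgeR adjusted p = 5.53e-05).

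**Figure D5:**
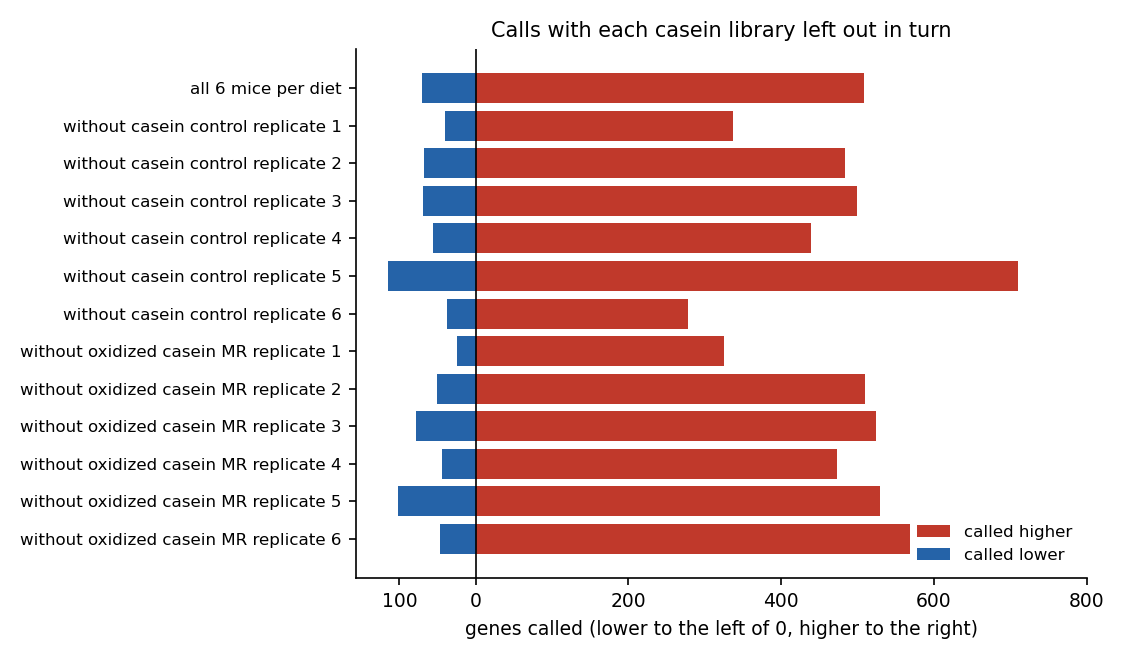
Number of genes called higher (red, right of 0) and lower (blue, left of 0) with all 6 mice per diet and with each casein library left out in turn. Counts ran from 316 genes in all without casein control 6 to 825 without casein control 5.

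Set beside the same methionine contrast on elemental amino acids, the casein response had more calls and the same direction. edgeR called 37 genes there (0.244% of 15176), 33 higher (0.217%) and 4 lower (0.0264%). Of these, 29 were also among the 509 called higher on casein and 1 among the 70 called lower, Igfbp4. Positive elemental log2 fold changes were found for 500 of the 509 genes, and negative ones for 67 of the 70. Over all genes tested the median elemental log2 fold change was -0.02. Slc25a34 had nearly equal changes, 2.97 ± 0.38 on casein and 2.96 ± 0.37 on elemental amino acids. With edgeR 0 genes were called for a difference between both responses, 506 had an unadjusted p below 0.05, limma voom also called none and DESeq2 called 2, Insig1 (1.55 ± 0.31 higher log2 fold change on casein, adjusted p = 0.0111) and Scd1 (1.16 ± 0.25, adjusted p = 0.0381).

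Fatty acid synthesis had the largest median difference between the casein and elemental responses among the 41 process lists. Its median log2 fold change was 0.03 on elemental amino acids against 0.69 on casein, and the median of the per-gene differences was 0.85. For Insig1 edgeR gave 1.19 ± 0.22 on casein and -0.34 ± 0.22 on elemental amino acids, a difference of 1.53 ± 0.31 (adjusted p = 0.703). The median of Acaca was 270 CPM in casein control, 653 in oxidized casein MR, 666 in elemental control and 774 in elemental MR. Scd1 had medians of 9339, 18300, 17020 and 13810 CPM in the same order, so for both genes casein control was the lowest of the 4 groups. Marker levels also differed between the contrasts: the muscle markers had a median log2 fold change of 0.89 on casein and -1.03 on elemental amino acids, and the B cell markers -1.06 and 0.23, and their part in the differences was not tested.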

How the data were processed

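RNA of inguinal fat from 24 mice was sequenced as 3' tags in 50 base reads, per the labels' protocols, and the authors deposited a table of raw read counts per gene for 16821 genes, which was used here. The authors' normalized table was not used. R 3.4.3, DESeq2 1.18.1 and the builds GRCm38 and mm10 are named in the submitters' processing notes, and the sources used here do not name an aligner, a counting tool or a strand setting. Gene symbols came from GENCODE M21 for 16771 IDs.

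Genes were filtered with filterByExpr (1645 removed, 15176 tested) and fitted with edgeR 4.0.16 (R 4.3.3, TMM scaling, quasi-likelihood test) over all 24 libraries with 1 mean per diet, which share an estimate of spread, and p-values were adjusted by Benjamini-Hochberg over all genes tested. A gene was called at an adjusted p under 0.05. CPM are TMM-scaled, log2 CPM used a prior count of 2, and the SE was derived from the F statistic. The smallest gene total over 24 libraries was 72 reads. No pair of libraries of 1 group agreed within sampling noise (smallest chi-square per degree of freedom 6.21). The fit was also run on simulated counts with 200 changed genes, where all genes had the same spread and no library differed in lymph node RNA. That run cannot show how the fit behaves where libraries differ in this way. Alternatives used DESeq2 1.42.0, limma 3.58.1 (voom), other scaling, no filter, the 12 casein libraries alone, lymph node terms or subsets (B cell markers above a mean of 4 log2 CPM), and each mouse left out.

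The comparison, its gene lists (41 process and 14 marker lists) and its tests were chosen with earlier results of these data known. Named genes are the 12 largest called changes in each direction with an average of at least 2 log2 CPM, the 10 smallest p-values, up to 4 called members of each list with the smallest p, regulators and rate-limiting enzymes needed to describe a list, and Ucp1, Lep, Adipoq, Fgf21, Asns and Prlr.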

Additional observations from a re-analysis of the deposited data

Results flagged for a closer look

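Among 288 groups of 6 mice examined, 26 had 1 mouse set apart from the other 5 by more than Dixon's 95% criterion for 6 values. A group was a named gene, examined on log2 CPM, or the share of mitochondrially encoded reads, within 1 diet. The values given below are CPM. Chance flags about 1 in 20 groups, and genes measured in the same mice are not independent.

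Casein control 6 was the low mouse in 9 of these, with 63.1 CPM for Agpat3, 146 for Atp5d, 57.1 for Bag1, 27.5 for Gyg, 53.1 for Mrpl12, 103 for Ndufc1, 56.7 for Pcx, 761 for Pnpla2 and 73.7 for Pygl. Casein control 2 was low for Afg3l2 (17.9 CPM), casein control 3 high for Gk (31.6 CPM), and casein control 5 high for Cfb (190.5 CPM) and Nedd9 (147 CPM).

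Oxidized casein MR 1 was the high mouse in 7, with 554 CPM for Idh3a, 176 for Insig1, 121 for Mlxipl, 205 for Ndufa11, 222 for Ndufa12, 130.5 for Ndufb4 and 77.7 for Prdx3. Oxidized casein MR 6 was set apart in 6, low for Gk (14.6 CPM), Lgr6 (0.929 CPM), Slc25a34 (6.50 CPM) and Ucp1 (99.4 CPM) and high for Mat2a (384 CPM) and Slc27a1 (88.1 CPM).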

How the results depend on the processing

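No paired analysis was possible because the labels carry mouse numbers only and no replicate number shared between diets. Against 579 calls (509 higher, 70 lower), DESeq2 gave 927 (801 higher, 126 lower), the 12 casein libraries alone 339 (319 and 20), lymph node presence as a term 1120 (431 lower) and B cell marker level as a term 1028 (373 lower). Libraries with lymph node transcripts alone gave 5 (5 and 0) and those without 172 (75 higher). With 1 mouse left out, the calls ran from 316 to 825, from 278 to 710 higher and from 25 to 115 lower. The count moved by over 1.5 times without casein control 1 (377, of which 337 higher and 40 lower), casein control 6 (316, 278 and 38) and oxidized casein MR 1 (350, 325 and 25), and the lower count alone without casein control 5 (115) and oxidized casein MR 4 (44). The causes were not tested. On elemental amino acids 37 calls became 221 with DESeq2, 166 and 200 with the lymph node and B cell terms, and 5 and 0 in libraries with and without lymph node transcripts, and DESeq2 called 2 differences between the responses. The difference in mitochondrial share stayed between 7.53 and 10.2 percentage points with 1 mouse left out, within the same side of the threshold.

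Of the 124 called genes named, none changed direction under any alternative, but many lost their call in the smaller fits. In the 12 casein libraries alone 84 of 123 such genes kept it. In libraries with lymph node transcripts 4 of 124 did, and in those without them 35 of 124 did. Among uncalled genes, the log2 fold change of Mat2a, near 0, turned positive under median-of-ratios scaling (0.0059), without mitochondrially encoded genes in the totals (0.024), with DESeq2 (0.0058) and in libraries without lymph node transcripts (0.091), and ran from -0.167 to 0.063 with 1 mouse left out. Adipoq turned to -0.068 and -0.040 with the lymph node and B cell terms and to -0.15 without lymph node libraries. In libraries with lymph node transcripts Adrb3 turned to -0.0045, Cpt1a to 0.015 and Prdm16 to -0.015, and without them Prdm16 to -0.014. Read totals limit genes such as Perm1 and Fgf21.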
